A study of Mus musculus with 3 samples.

Results

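The Krüppel-like factors (KLFs) are zinc finger transcription factors, and 9 of their genes, Klf2, Klf3, Klf4, Klf6, Klf7, Klf9, Klf10, Klf12 and Klf13, are described here in mouse CD8+ T cells. They were found as every probe set whose platform annotation gives 1 of these symbols and no other. This gave 35 of 45101 probe sets, for 9 of 18193 genes. Each of 3 groups had 1 Affymetrix mouse genome array. The NK1.1+ KO and NK1.1- KO groups were CD8+ T cells, sorted by the natural killer cell marker NK1.1, of mice 15 to 17 days old and of the genotype Tgfbr2 fl/fl x CD4-Cre, in which Cd4 regulatory sequences drive Cre. Tgfbr2 encodes the type II receptor of transforming growth factor β (TGF-β). The control group was CD8+ T cells of littermates with 1 floxed and 1 wild-type copy (Tgfbr2 fl/wt x CD4-Cre), so all 3 groups carry Cre and at least 1 floxed copy. The control sample's title calls its cells NK1.1-, whereas a passage of the design text describes unseparated CD8+ cells. CD4-Cre acts from the thymus on and in both T cell lineages, and the labels do not say whether mice were pooled.

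KLF proteins share a carboxy-terminal DNA-binding part of zinc fingers that recognises GC-rich and CACCC sequences, while their other parts differ and recruit either co-activators or co-repressors. In T cells KLF2 is known for keeping naive cells quiescent and in circulation, through genes such as S1pr1. It is switched on by FOXO1 and by the MEK5-ERK5-MEF2 cascade, and is lost on T cell activation. KLF4 restrains CD8+ T cell division and is also needed for the non-classical monocyte. KLF10 was found as a gene induced early by TGF-β.

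Promoter sequences are shown for Klf2, whose promoter holds the letters of a MEF2 site, and for Klf4 and Klf9, which differed most between the arrays. They are the 250 bases before the start of the gene from RefSeq's GRCm38.p6 table, in which 8 of the 9 genes matched. Klf2 is at chr8:72318812-72319061 on the + strand, Klf4 at chr4:55532476-55532725 on the - strand and Klf9 at chr19:23140976-23141225 on the + strand. Each reads 5′ to 3′ along its gene. Capitals mark GC boxes (GGGCGG on either strand) in Klf2 and Klf4, the letters of a MEF2 motif (CTA and TAG with 4 bases between them) in Klf2, and the FOXO letters TGTTTAC, here on the opposite strand, in Klf9.
Klf2: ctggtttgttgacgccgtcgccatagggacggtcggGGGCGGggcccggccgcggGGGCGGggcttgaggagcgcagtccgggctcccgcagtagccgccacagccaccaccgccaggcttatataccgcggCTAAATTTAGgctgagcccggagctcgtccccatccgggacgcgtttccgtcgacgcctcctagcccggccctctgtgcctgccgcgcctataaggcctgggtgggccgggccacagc
Klf4: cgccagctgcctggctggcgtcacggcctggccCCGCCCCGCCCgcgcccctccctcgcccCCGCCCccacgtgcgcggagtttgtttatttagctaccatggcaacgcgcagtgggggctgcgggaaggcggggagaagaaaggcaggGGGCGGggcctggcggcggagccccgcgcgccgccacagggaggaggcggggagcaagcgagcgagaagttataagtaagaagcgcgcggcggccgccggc
Klf9: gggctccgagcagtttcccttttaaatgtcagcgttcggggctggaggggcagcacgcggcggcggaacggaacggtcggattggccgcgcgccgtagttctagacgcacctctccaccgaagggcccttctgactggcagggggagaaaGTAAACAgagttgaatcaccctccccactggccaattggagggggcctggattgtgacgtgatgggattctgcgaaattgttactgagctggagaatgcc
Counted from the start of the gene, the MEF2 letters of Klf2 lie at -118 to -109 and the FOXO letters of Klf9 at -100 to -94. MEF2 letters were in 3.2% of 32851 promoter windows of the same length and in 1 of the 8 KLF windows. FOXO letters were in 3.17% of all windows and in 1 of the 8. A GC box, the kind of sequence that KLF proteins themselves bind, was in 6 of the 8 KLF windows and in 32.7% of all. CACCC letters were in 6 of 8 and in 52% of all, with overlap between these 2 motifs allowed. Klf2 held 2 GC boxes, Klf4 held 4 and Klf9 held 0. The KLF windows were 48% to 78.4% G and C, against a median of 52.4% over all windows.

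The arrays are described in a few values that bear on every difference below. Values were deposited as linear intensities, and those of 9.66 or more were taken as measured, 9.66 being the 95th percentile of 145 probe sets of sensory receptor, keratin-associated and lens crystallin genes. Lower values were raised to that level before log2 differences were taken, and a gene was called higher or lower at a 2-fold difference or more. Since each group has a single array, the spread between mice is unknown, nothing was tested and no p-value is given. A gene's value is that of its brightest probe set, and probe sets of the same gene differed with a pooled SD of 0.44 (log2) in the comparison of NK1.1- KO with control, 0.85 in that of NK1.1+ KO with control and 0.77 between the KO groups. The NK1.1+ KO array differed from the others in several of the measures that follow. The NK1.1+ KO array's Actb 3′ to 5′ ratio was 81.9, against 12.3 in NK1.1- KO and 6.02 in control, whereas its Gapdh ratio was the lowest at 10.8, against 26.7 in NK1.1- KO and 17.8 in control. Its hybridisation controls were 2.51-fold above those of the control array and 2.50-fold above those of the NK1.1- KO array. Poly-A controls were 2.51-fold above the control array in NK1.1+ KO and 2.08-fold below it in NK1.1- KO. The NK1.1+ KO array's median log2 difference over all genes measured was -0.17 from control and -0.24 from NK1.1- KO. The targeted gene Tgfbr2 read 1808 in NK1.1+ KO cells, 1271 in NK1.1- KO cells and 2634 in controls, and the labels do not say where this probe set lies relative to the deleted part, so it does not check them. The probe set shared by Klrb1b and the NK1.1 gene Klrb1c read 1618 in NK1.1+ KO cells, 52.7 in NK1.1- KO cells and 7.09 in controls.

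All 9 KLF genes were measured on at least 1 array by their brightest probe set, and 8 on all 3; Klf12 was below the level in control cells and so could only have been called higher against them. Of the 35 probe sets, 26 were measured on at least 1 array, 23 on all 3 and 9 on none. Relative to control, NK1.1- KO cells had 3 KLF genes called higher (Klf9, Klf10 and Klf12) and 1 lower (Klf13), where 8.05% of 10047 measured genes were called higher and 5.56% lower. By probe set these were 4 higher and 1 lower of 25, beside 6.91% and 5.92% of all. NK1.1+ KO cells had 4 called higher (Klf4, Klf9, Klf10 and Klf12) and 0 lower, where 9.85% of 10633 genes were called higher and 22.9% lower. By probe set these were 7 higher and 4 lower of 26, beside 8.72% and 22.5%. Between the KO groups, 3 were called higher in NK1.1+ cells (Klf3, Klf4 and Klf9) and 0 lower, where 6.53% of 10625 genes were higher and 21.3% lower. By probe set these were 4 higher and 1 lower of 26, beside 6.3% and 20.6%. The median log2 difference of the 9 genes was 0.45 for NK1.1- KO and 0.91 for NK1.1+ KO against control, and 0.69 for NK1.1+ KO against NK1.1- KO, beside medians over all genes of 0.01, -0.17 and -0.24. Of these counts, the 4 higher in NK1.1+ KO cells became 2, with 3 lower, when the arrays were scaled to their hybridisation controls, which moved the median of all genes to -1.39. Between the KO groups, that scaling turned 6 of the 9 genes from positive to negative log2 differences: Klf6 to -1.04 and Klf7 to -1.19, both then called lower, and Klf2 to -0.63, Klf3 to -0.31, Klf10 to -0.76 and Klf13 to -0.45. Klf12 moved to -1.77, and Klf9 to 0.63, no longer a call, beside a median of -1.46 over all genes. Over all genes the calls in NK1.1+ KO against control were 1047 higher and 2430 lower as deposited, 1314 and 1932 after quantile normalization, and 307 and 6805 with that scaling. Between the KO groups they were 694 and 2261, 937 and 1689, and 196 and 7231 in the same order. Lower calls under that scaling were thus 64.9% of measured genes against control and 68.6% between the KO groups.

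**Figure D1:**
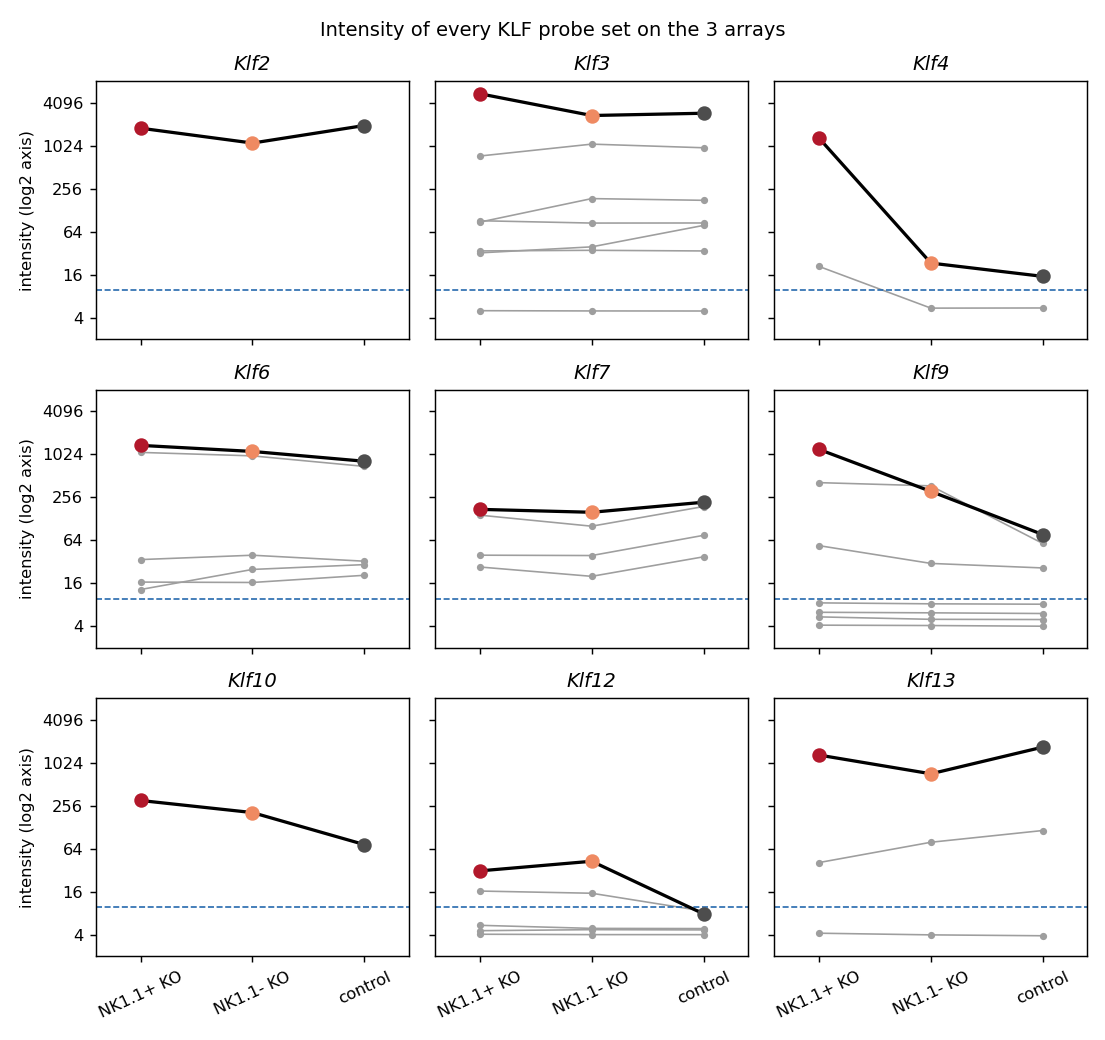
Intensity (log2 axis) of every KLF probe set in NK1.1+ KO cells, NK1.1- KO and control cells, 1 array each, with the brightest probe set of a gene as a black line with coloured points, the others in grey and the level of 9.66 dashed. Klf9, Klf10 and Klf12 sit higher in both KO groups than in control, Klf4 is high in NK1.1+ KO cells, and the grey lines of Klf3 and Klf13 do not follow their black line.

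Klf2, the quiescence and trafficking factor, was read by 1 probe set at 1792 in NK1.1+ KO cells, 1111 in NK1.1- KO cells and 1955 in controls. The NK1.1- KO value was 1.76-fold below control, short of a call, and 860 of the measured genes had a lower log2 difference. In NK1.1+ KO cells Klf2 was 1.09-fold below control, near the middle of all genes at the percentile 51.9. Between the KO groups it was 1.61-fold higher in NK1.1+ cells. After quantile normalization its difference between NK1.1+ KO and control was 0.05 (log2). With the arrays scaled to their hybridisation controls the difference between NK1.1+ KO and control was -1.45 (log2), beside the median of -1.39 over all genes. In bulk RNA, a lower level per cell and fewer cells that express a gene cannot be told apart.

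Genes that KLF2 is known to switch on for lymphocyte trafficking included S1pr1 and Ccr7, which were called lower than control in both KO groups. Of the 4 with a probe set of their own, the lower calls numbered 3 in NK1.1+ KO and 2 in NK1.1- KO cells, and 0 were higher. The shares of all measured genes called lower were 22.9% and 5.56% in that order. S1pr1, the receptor through which T cells leave lymph nodes, read 130.5 in NK1.1+ KO cells, 209.7 in NK1.1- KO cells and 538.9 in controls, 4.13-fold and 2.57-fold below control. Ccr7, the receptor for lymph node entry, read 6.01 in NK1.1+ KO cells, 67.1 in NK1.1- KO cells and 1101 in controls, at least 114-fold and 16.4-fold below control. The gut-homing integrin subunit gene Itgb7 read 537.6, 1475 and 2270 in the same order and was called for the NK1.1+ KO group, lower than both others. S1pr4, another receptor of the S1pr1 family, read 647.8, 1225 and 990.4 in that order and was not called. The median log2 difference of the 4 from control was -2.06 in NK1.1+ KO and -0.99 in NK1.1- KO cells.

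Of the chemokine receptors known to go up when mouse T cells lose KLF2, 2 were measured. Cxcr3, the receptor for interferon-induced chemokines, read 1020 in NK1.1+ KO cells, 4457 in NK1.1- KO cells and 1512 in controls. It was thus 2.95-fold above control in NK1.1- KO cells and 1.48-fold below control in NK1.1+ KO cells. Cxcr6 read 403.8 in NK1.1+ KO cells, 259.7 in NK1.1- KO cells and 234.1 in controls and was not called. Its other measured probe set was at -0.90 (log2) in NK1.1+ KO and 0.08 in NK1.1- KO cells against control.

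Among regulators upstream of KLF2 and KLF4, the NK1.1- KO group had 3 of 7 measured genes called lower than control and 0 higher. The NK1.1+ KO group had 2 lower and 0 higher. Shares of lower calls over the whole array were 5.56% for the NK1.1- and 22.9% for the NK1.1+ group. The list's median log2 difference from control was -0.23 for the NK1.1- and -0.24 for the NK1.1+ group. Medians over all genes were 0.01 and -0.17 in that order. Foxo1, which activates Klf2 in naive T cells, read 1081 in NK1.1+ KO cells, 1405 in NK1.1- KO cells and 2914 in controls. It was called lower in both KO groups, 2.70-fold and 2.07-fold, and its 3 measured probe sets all differed downward, with log2 differences of -2.81 to -1.43 in NK1.1+ KO and -1.76 to -1.05 in NK1.1- KO cells. Foxo3, a relative of Foxo1, read 2059 in NK1.1+ KO cells, 578.7 in NK1.1- KO cells and 1301 in controls, 2.25-fold below control in NK1.1- KO cells. Map2k5, encoding MEK5, read 31.3 in NK1.1+ KO cells, 205.1 in NK1.1- KO cells and 209.3 in controls, but its other probe sets reached a log2 difference of 0.23 in NK1.1+ KO cells. Mef2c, 1 of the MEF2 genes, read 175.1 in NK1.1+ KO cells, 43.9 in NK1.1- KO cells and 100.03 in controls, called lower in NK1.1- KO cells, where another of its 4 measured probe sets was at -0.05 (log2). Mapk7 (encoding ERK5), Mef2a and Mef2d were not called in any comparison by their brightest probe sets. Another of the 5 measured Mef2a probe sets was 1.22 (log2) higher in NK1.1+ KO than in NK1.1- KO cells.

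**Figure D2:**
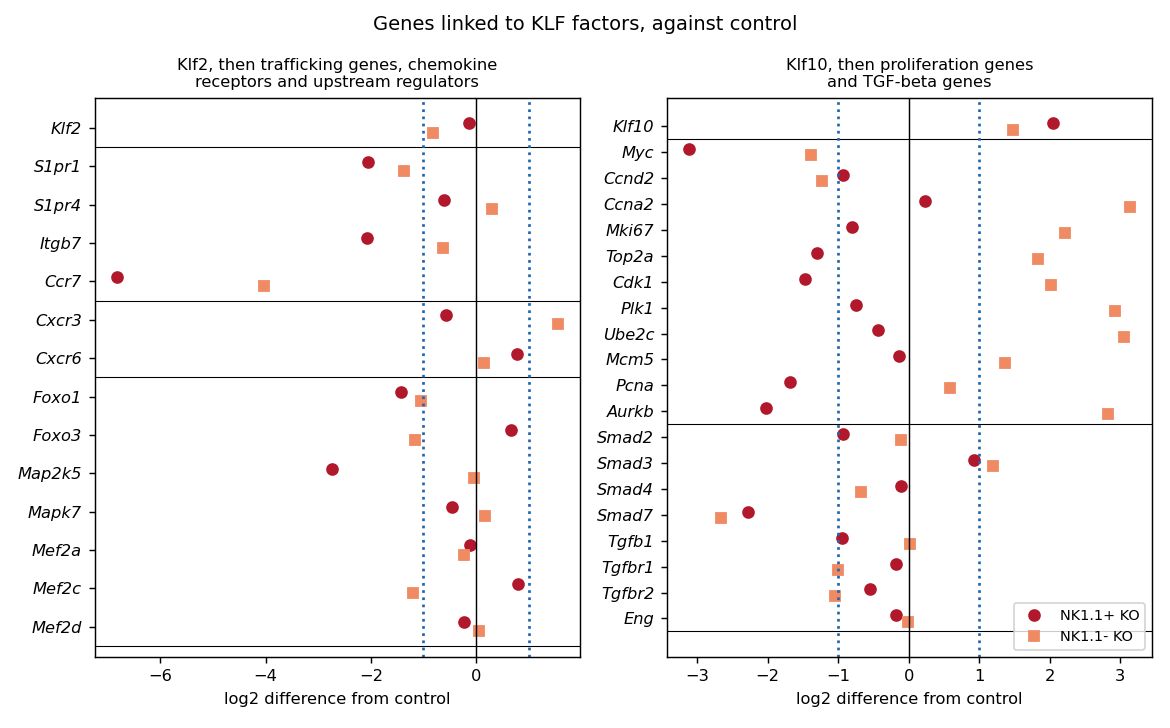
Log2 differences from control of Klf2 with KLF2-linked trafficking genes, chemokine receptors and upstream regulators (left) and of Klf10 with proliferation and TGF-β genes (right); circles are NK1.1+ KO and squares NK1.1- KO cells, 1 array each, and dotted lines mark 2-fold. Ccr7 lies far below control in both groups, Klf2 lies within 2-fold of it, and most proliferation genes have squares above and circles below 0.

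Klf4 had the largest difference of the 9 genes. Its brightest probe set read 1301 in NK1.1+ KO cells, 23.3 in NK1.1- KO cells and 15.2 in controls, 85.8-fold above control and 55.9-fold above NK1.1- KO cells in the NK1.1+ group. Only 8 of the measured genes had a higher log2 difference between NK1.1+ KO and control cells. Its other probe set read 20.9 in NK1.1+ KO cells and was below the level in NK1.1- KO (5.45) and control cells (5.48), which is at least 2.16-fold. In NK1.1- KO cells Klf4 was 1.53-fold above control, and both values were within 3-fold of the level.

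Monocyte genes moved with Klf4 on the NK1.1+ KO array. Of 18 monocyte genes with a probe set of their own, 14 reached the level in NK1.1+ KO cells, 11 in NK1.1- KO cells and 9 in controls, and their summed value was 14900 in NK1.1+ KO cells, 1866 in NK1.1- KO cells and 687.6 in controls. Of 14 measured in NK1.1+ KO or control cells, 12 were called higher and 0 lower (median log2 difference 3.42). NK1.1- KO cells had 3 higher and 1 lower of 11. Over all measured genes, higher and lower calls were 9.85% and 22.9% in NK1.1+ KO, and 8.05% and 5.56% in NK1.1- KO cells. Csf1r, the growth factor receptor of mononuclear phagocytes, read 7666 in NK1.1+ KO cells, 54.5 in NK1.1- KO cells and 30.5 in controls. Adgre4, a macrophage adhesion receptor, read 1685, 12.9 and 11.1 in that order. Cx3cr1, found on monocytes and on effector T cells, read 2049 in NK1.1+ KO cells, 568 in NK1.1- KO cells and 14.5 in controls. The monocyte markers Cd14, Itgam, Cebpa and C1qa, chosen after their values were seen, were below the level on all 3 arrays. C1qa came close to it in NK1.1+ KO cells, at 9.05. Its partner C1qb read 162.8 in NK1.1+ KO cells, 9.29 in NK1.1- KO cells and 9.14 in controls, at least 16.9-fold above control in the NK1.1+ group. Jchain, a gene of antibody-secreting cells, read 2282 in NK1.1+ KO cells, 15.97 in NK1.1- KO cells and 15.9 in controls. Ms4a1, the B cell gene of CD20, read 108.4, 76.7 and 211.5 in that order. In NK1.1+ KO against control, 2 of 5 measured B cell genes were called higher and 1 lower, and in NK1.1- KO against control 1 higher and 2 lower. The part of monocytes or other cells in the Klf4 value was not tested.

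**Figure D3:**
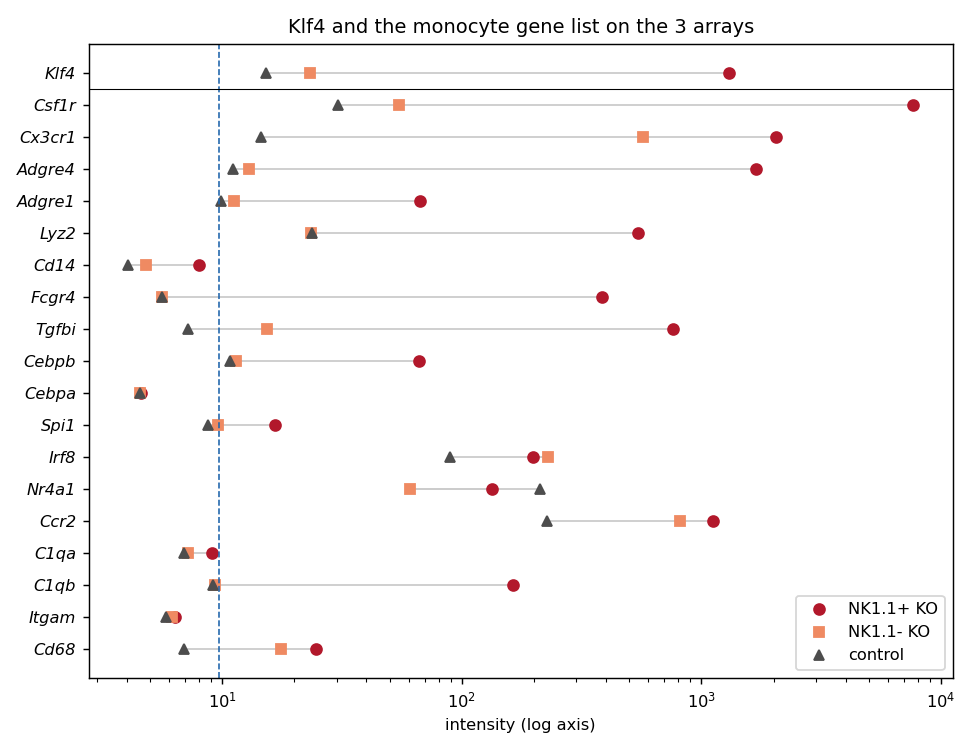
Intensity (log axis) of Klf4 and of 18 monocyte genes in NK1.1+ KO (circles), NK1.1- KO (squares) and control cells (triangles), 1 array each, with the level of 9.66 dashed. Klf4, Csf1r and Adgre4 show the same layout, with NK1.1+ KO cells far to the right of both other groups. Those groups lie near the level for Klf4 and Adgre4 but further above it for Csf1r. Cd14, Cebpa, C1qa and Itgam stay left of the level in all groups.

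Klf6 and Klf7, closely related activators, were not called by their brightest probe sets in any comparison of the deposited values. The brightest Klf6 probe set read 1357 in NK1.1+ KO cells, 1116 in NK1.1- KO cells and 813.9 in controls, and the next one 1082, 967.7 and 689.5 in that order. Both were thus highest in NK1.1+ KO and lowest in control cells, at 1.67-fold or less. The 3 dim Klf6 probe sets, at 13.1 to 39.4, did not share that order, and 1 of them was 2.23-fold below control in NK1.1+ KO cells. Klf7 was below control by all 4 of its probe sets in both KO groups. Its brightest read 173 in NK1.1+ KO cells, 157 in NK1.1- KO cells and 217 in controls, and the others differed by 1.87-fold to 1.92-fold in NK1.1- KO and 1.32-fold to 1.89-fold in NK1.1+ KO cells, none of them a call. Scaled to the hybridisation controls, Klf6 was at -0.59 (log2) and Klf7 at -1.66, a call, in NK1.1+ KO cells against control, beside the median of -1.39 over all genes.

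Klf9, Klf10 and Klf13 encode factors that act largely as repressors through SIN3A, though KLF13 also activates. Klf9, known as a gene induced by glucocorticoid and thyroid hormone, was higher in both KO groups by its 3 measured probe sets. The brightest read 1191 in NK1.1+ KO cells, 308 in NK1.1- KO cells and 76.8 in controls, 15.5-fold and 4.02-fold above control. The second read 408.6 in NK1.1+ KO cells, 368.4 in NK1.1- KO cells and 57.6 in controls, 7.09-fold and 6.39-fold above control. The dimmest of the 3 read 53.7, 30.3 and 26.2 in that order, 2.05-fold above control in NK1.1+ KO cells and 1.16-fold in NK1.1- KO cells. Both bright probe sets were thus past 4-fold against control in each KO group, but they disagreed between the KO groups, with 3.86-fold by the brightest and 1.11-fold by the second. The mean of the 3 gave 0.97 (log2) between the KO groups, under 2-fold. The other 4 Klf9 probe sets were below the level everywhere. Averaged with these 4 at the level, Klf9 was 0.70 (log2) above control in NK1.1- KO cells, under 2-fold.

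Klf10, the TGF-β-induced gene, read 302.5 in NK1.1+ KO cells, 205 in NK1.1- KO cells and 73.1 in controls by its 1 probe set. It was thus 4.14-fold and 2.80-fold above control in cells whose receptor gene had been targeted. Genes tied to TGF-β signalling did not move as 1 group. Smad7, a feedback inhibitor that TGF-β induces and KLF10 can repress, read 33.4 in NK1.1+ KO cells, 25.7 in NK1.1- KO cells and 162.1 in controls, 4.85-fold and 6.31-fold below control. Its other measured probe set was at -0.27 (log2) in NK1.1+ KO cells, short of a call, and at -1.52 in NK1.1- KO cells. Smad3, a signal transducer, read 753.5 in NK1.1+ KO cells, 910.4 in NK1.1- KO cells and 397.8 in controls and was called higher in NK1.1- KO cells only at 2.29-fold, against 1.89-fold in NK1.1+ KO cells. Of the 8 genes of the list, which includes Tgfbr2 itself, 1 was called higher and 2 lower in NK1.1- KO cells. In NK1.1+ KO cells 0 were higher and 1 lower. The shares of all genes called higher and lower were 8.05% and 5.56% in NK1.1- KO, and 9.85% and 22.9% in NK1.1+ KO cells. Scaled to the hybridisation controls, Klf10 was 0.72 (log2) above control in NK1.1+ KO cells, beside the median of -1.39 over all genes.

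Klf13, whose product was first described as an activator of the chemokine gene CCL5 in activated human T cells, was lowest in NK1.1- KO cells by its brightest probe set as deposited. Scaled to the hybridisation controls, it was at -1.69 (log2) in NK1.1+ KO and -1.24 in NK1.1- KO cells against control. The medians over all genes were then -1.39 and 0.01. The deposited values of Klf13 were 1307 in NK1.1+ KO cells, 715 in NK1.1- KO cells and 1688 in controls, 2.36-fold below control in NK1.1- KO cells. Its other measured probe set read 41, 78.8 and 115 in that order, with NK1.1+ KO cells lowest at 2.81-fold below control. Both probe sets were thus below control in both KO groups, but they disagreed on which was lower. The mean of the 2 was 0.89 (log2) below control in NK1.1- KO cells, under 2-fold. Ccl5 read 21305 in NK1.1+ KO cells, 12186 in NK1.1- KO cells and 1119 in controls, and was called higher in both KO groups. The brightest Klf13 probe set was only 1.29-fold below control in NK1.1+ KO cells, short of a call. A link between Ccl5 and Klf13 was not tested. Bcl2l1, a survival gene that KLF13 represses in mouse thymocytes, read 125.2, 153.6 and 91.3 in that order and was not called.

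Klf3 and Klf12 encode repressors that recruit the co-repressor CtBP. The brightest Klf3 probe set read 5439 in NK1.1+ KO cells, 2698 in NK1.1- KO cells and 2903 in controls, 2.02-fold above NK1.1- KO and 1.87-fold above control in the NK1.1+ group. The second probe set ran the other way, at 732 in NK1.1+ KO cells, 1073 in NK1.1- KO cells and 955 in controls. Another read 87, 186 and 176 in that order, 2.13-fold below NK1.1- KO in the NK1.1+ group. The 6 measured Klf3 probe sets split evenly in NK1.1+ KO against control, 3 above and 3 below, with log2 differences of -1.28 to 0.91. Their mean between NK1.1+ KO and NK1.1- KO was -0.14, so the direction of Klf3 in NK1.1+ cells is not settled by these data. In NK1.1- KO cells 5 of the 6 were at log2 differences of -0.11 to 0.17 from control, and the other was 1.99-fold below.

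Klf12 was read above the level in the KO groups only. Its brightest probe set read 31.4 in NK1.1+ KO cells, 42.7 in NK1.1- KO cells and 7.85 in controls, at least 3.25-fold and at least 4.43-fold above control. A second read 16.4, 15.3 and 8.58 in that order, which is at least 1.69-fold and at least 1.58-fold. The other 3 were below the level everywhere. Both probe sets are dim, and with an offset of 32 added to each value Klf12 was 0.67 (log2) above control in NK1.1+ KO and 0.91 in NK1.1- KO cells.

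**Figure D4:**
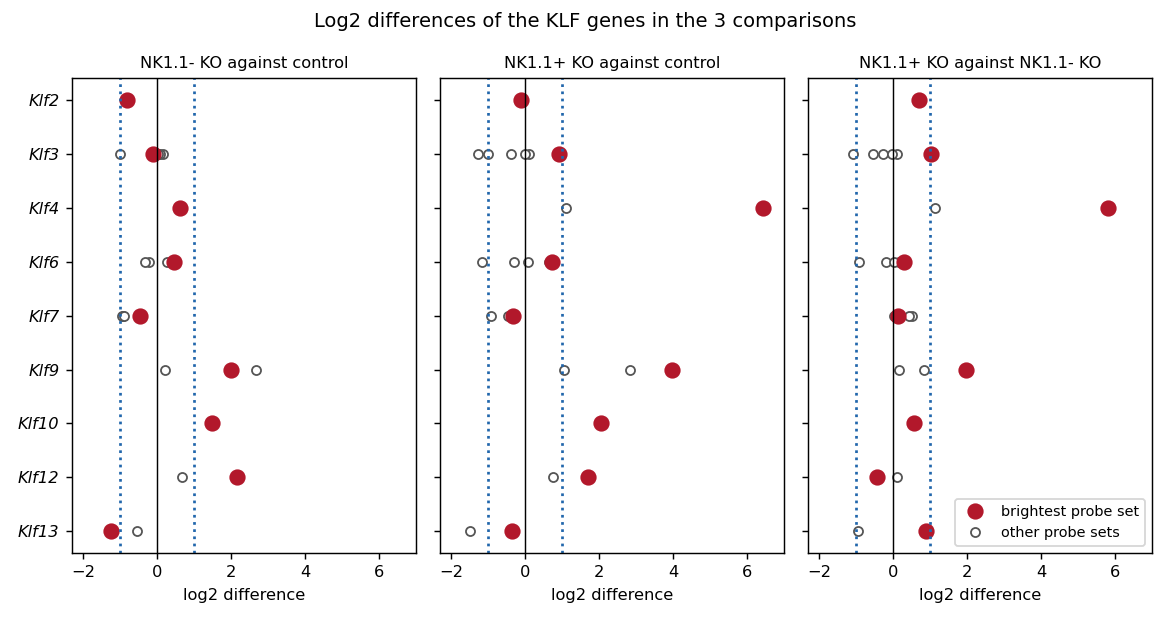
Log2 differences of the 9 KLF genes in the 3 comparisons, 1 array per group, with the brightest probe set filled, other measured probe sets open and 2-fold dotted. The open circles of Klf3 lie on both sides of 0 and Klf13 reverses order between its 2 probe sets, whereas all points of Klf9, Klf10 and Klf12 lie above 0 against control.

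**Figure D5:**
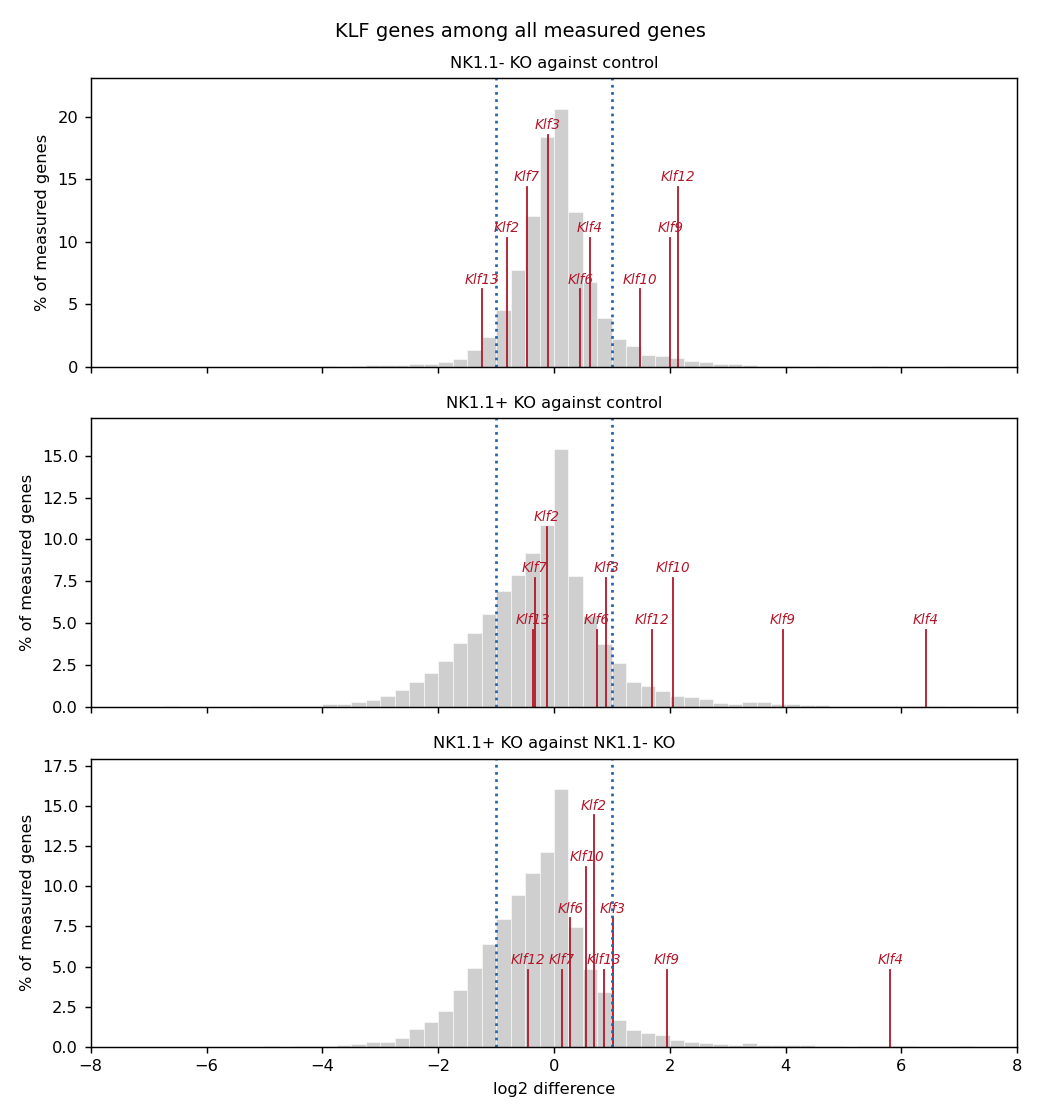
Share of all measured genes (%) by log2 difference in bins of 0.25 for the 3 comparisons (grey bars), with the brightest probe set of each KLF gene as a red line and 2-fold dotted. In NK1.1+ KO against control the bars lean to negative values while Klf4, Klf9, Klf10 and Klf12 lie beyond the upper dotted line.

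Genes of the cell cycle, which KLF2 and KLF4 are known to restrain in T cells, were mostly called higher in NK1.1- KO cells. Of 11 measured proliferation genes, 8 were called higher and 2 lower in NK1.1- KO cells relative to control (median log2 difference 2.02). In NK1.1+ KO cells 0 were higher and 5 lower (median -0.94). Over all measured genes, higher and lower calls were 8.05% and 5.56% in NK1.1- KO, and 9.85% and 22.9% in NK1.1+ KO cells. The cyclin gene Ccna2 read 58.2 in NK1.1+ KO cells, 437 in NK1.1- KO cells and 49.3 in controls. Plk1, a mitotic kinase, read 16.6, 213 and 27.8 in that order. Myc, which KLF2 and KLF4 restrain, was among the 2 lower genes and read 13.9 in NK1.1+ KO cells, 45.9 in NK1.1- KO cells and 120.5 in controls. Of 12 brakes on the cell cycle, 2 were called higher and 0 lower in NK1.1- KO, and 2 higher and 1 lower in NK1.1+ KO cells. Cdkn1a, encoding p21 and a target of KLF4, read 24.9 in NK1.1+ KO cells, 98.3 in NK1.1- KO cells and 10.4 in controls, and its other measured probe set was at 0.23 (log2) in NK1.1- KO cells against control. Cdkn1b, encoding p27, read 2060 in NK1.1+ KO cells, 578 in NK1.1- KO cells and 1120 in controls. Slfn2, a quiescence gene, read 881.4, 2461 and 3112 in that order, 3.53-fold below control in NK1.1+ KO cells. Whether KLF2 or KLF4 had a part in these cell cycle differences was not tested.

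Of 10 measured co-factor and co-repressor genes, 0 were called in NK1.1- KO cells, and 2 were higher and 2 lower in NK1.1+ KO cells, relative to control, beside 9.85% higher and 22.9% lower of all genes in NK1.1+ KO cells. Ctbp2, encoding a co-repressor of KLF3 and KLF12, read 45.9 in NK1.1+ KO cells, 8.20 in NK1.1- KO cells and 13.1 in controls, 3.50-fold above control in the NK1.1+ group. The histone deacetylase gene Hdac2 read 135.3, 307.3 and 569.3 in that order, but another Hdac2 probe set was 1.22 (log2) above control in NK1.1+ KO cells. Ep300, encoding the acetylase p300, read 823.1 in NK1.1+ KO cells, 484.5 in NK1.1- KO cells and 351.3 in controls. Of 6 ubiquitin ligase genes, 0 were called higher and 1 lower in NK1.1- KO, and 2 higher and 1 lower in NK1.1+ KO cells. In NK1.1- KO cells 8.05% of all genes were called higher and 5.56% lower. Smurf1, which marks KLF2 for degradation, read 15.01 in NK1.1+ KO cells, 19.4 in NK1.1- KO cells and 39.7 in controls, the 1 gene lower in both. Fbxw7, another ligase of KLF2, read 598, 415.1 and 273 in that order, 2.19-fold above control in the NK1.1+ group, where its other measured probe set was at -0.43 (log2). Scaled to the hybridisation controls, NK1.1+ KO cells differed from control by -0.19 (log2) for Fbxw7 and -0.097 for Ep300. The median over all genes was then -1.39.

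Other members of the KLF and SP family were mostly dim or little changed. Of 14 genes, 7 were measured in NK1.1- KO or control cells with 1 called higher and 0 lower. In NK1.1+ KO or control cells 8 were measured, with 1 higher and 0 lower. Over all measured genes, higher and lower calls were 8.05% and 5.56% in NK1.1- KO, and 9.85% and 22.9% in NK1.1+ KO cells. Klf11, the closest relative of Klf10, read 36.5 in NK1.1+ KO cells, 61.3 in NK1.1- KO cells and 23.98 in controls, 2.56-fold above control in NK1.1- KO and 1.52-fold in NK1.1+ KO cells. Klf16 read 40.6, 53.5 and 30.4 in that order and was not called. Sp4 read 632.6 in NK1.1+ KO cells, 530.5 in NK1.1- KO cells and 285.7 in controls. It was 2.21-fold above control in the NK1.1+ group and 1.86-fold in the NK1.1- group. Scaled to hybridisation controls it was at -0.18 (log2) in the NK1.1+ group, beside a median of -1.39 over all genes. The other measured Sp4 probe set, as deposited, was at 0.37 (log2) from control in the NK1.1+ and 1.01 in the NK1.1- group. Sp1, the founding member of the SP factors, read 2691, 1464 and 1652 in that order.

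Most T cell genes of the list were called lower than control on the NK1.1+ KO array. Of 9 measured T cell genes, 7 were called lower and 0 higher in NK1.1+ KO cells relative to control, and 2 lower and 0 higher in NK1.1- KO cells, with summed values of 7058 in NK1.1+ KO cells, 12256 in NK1.1- KO cells and 16085 in controls. Cd5, a brake on antigen receptor signalling, read 253.6, 785.1 and 1815 in that order. The lower calls among 8 housekeeping genes numbered 4 for NK1.1+ KO and 0 for NK1.1- KO cells, with 0 higher in either. Lower calls over all measured genes were 22.9% in NK1.1+ KO and 5.56% in NK1.1- KO cells. The part of these T cell and housekeeping differences in the KLF differences was not tested.

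By the distance between their 2 log2 differences from control, over 3 arrays and 8890 genes measured on all of them, the gene nearest to Klf4 was Fpr2, at a distance of 0.07, with 830 in NK1.1+ KO cells, 14.5 in NK1.1- KO cells and 9.86 in controls. Fpr2 encodes a chemoattractant receptor of phagocytes. The nearest to Klf9 was Naip5, at 0.22, with 285 in NK1.1+ KO cells, 68.2 in NK1.1- KO cells and 16.02 in controls. The nearest to Klf10 was Nfic, at 0.05, with 207, 140 and 51.2 in that order. Nearest to Klf13 were 2610024D14Rik and then Klhl9, at 0.07, with 814, 470 and 1059. Nearest to Klf3 were 4831440E17Rik and then Celf1, at 0.03, with 5069, 2458 and 2709. The second genes of Klf4, Klf9 and Klf10 were Igk, Lair1 and Raph1.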

How the data were processed

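The authors deposited 1 linear intensity for each probe set and array, from 2.60 to 55467.7 outside control probe sets. GCRMA 1.1.3 is named in the submitters' processing notes, and the sources used here do not give its settings or a genome build. Groups were taken from sample titles. Gene symbols came from GEO's platform annotation, in which 34945 probe sets had 1 symbol, 932 several and 9160 none among those outside the 64 controls. Values were floored at the level, log2 differences taken, and calls made at 2-fold in Python 3.11.15 with pandas 2.3.3. Simulated data checked the rules only for genes well above the level, with low noise and changes in the NK1.1- KO group. Dim genes and disagreement between probe sets were not covered. All members are named with every probe set. From each list, up to 3 members with the largest absolute difference in each comparison could be named. Lists of at most 8 could be given in full, but some of their genes are not named. For each called member measured on all arrays, the 2 nearest genes are named. Cdk1, Top2a, Cd14, Itgam, Cebpa, C1qa and C1qb are outside that rule and were chosen after their values were seen. Some list genes were not analysed here. The members and lists were chosen with earlier results of these data known. Depth has no meaning for arrays, and their number limits the precision. Alternatives covered the level, offset, probe set rule, normalization and fold.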

Additional observations from a re-analysis of the deposited data

Results flagged for a closer look

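Among the genes linked to the KLF factors, 3 proliferation genes were called in opposite directions against control in the KO groups: lower in NK1.1+ KO and higher in NK1.1- KO cells. They were picked after their values were seen. The log2 difference was -1.31 in NK1.1+ KO and 1.84 in NK1.1- KO cells for Top2a, -1.47 and 2.02 for Cdk1, and -2.03 and 2.82 for Aurkb. With 1 array per group and a shared control array, this difference was not tested. Top2a has another probe set that was above control in NK1.1+ KO cells, at 1.36. The other measured probe set of Aurkb was at -0.81 in NK1.1+ KO cells, short of a call. No KLF gene was called in opposite directions.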

How the results depend on the processing

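No paired analysis was possible because each group has 1 array, and leaving out a replicate was not possible for the same reason. With the mean of all probe sets of a gene, KLF genes called in NK1.1- KO against control were 1 higher and 0 lower, and 1 was higher in NK1.1+ KO against NK1.1- KO. With the mean of probe sets measured on all arrays, an alternative chosen after seeing the data, they were 0 lower and 1 higher in those comparisons. At 1.5-fold, 2 were lower in NK1.1- KO against control and 5 higher in NK1.1+ KO against NK1.1- KO, and at 3-fold 0 were lower in NK1.1- KO against control. Scaled to hybridisation controls, 2 were higher and 3 lower in NK1.1+ KO against control, and 1 higher and 3 lower between the KO groups. The scaling called 2.93% of all genes higher and 64.9% lower against control, and 1.86% and 68.6% between the KO groups. Linked genes called in NK1.1- KO against control, NK1.1+ KO against control and NK1.1+ KO against NK1.1- KO numbered 55, 75 and 68 at 1.5-fold and 16, 30 and 29 at 3-fold, against 33, 49 and 45 at 2-fold. With that scaling, the comparisons of NK1.1+ KO with control and with NK1.1- KO gave 78 and 77. Klf3 between the KO groups became -0.12 with the mean of all probe sets, -0.14 with those measured on all arrays and -0.31 with the scaling. In NK1.1+ KO against control, Top2a became 0.018, 0.027 and, without suffixed probe sets, 1.36; Wwp1 became -0.27 by both means. Under the scaling, which lowered the median of all genes to -1.39, log2 differences of NK1.1+ KO from control became -0.063 for Cdkn1a, -0.32 for Btg1, -0.18 for Sp4, -0.097 for Ep300, -0.032 for Wwp1, -0.19 for Fbxw7 and -0.19 for Cd22, and from NK1.1- KO -0.021 for Btg1, -0.072 for Crebbp and -0.19 for Nr4a1. The cause was not tested. Over all genes, higher and lower calls in NK1.1- KO against control were 809 and 559, and became 494 and 312 when the level was the 75th percentile over every value, 473 and 238 with an offset of 32, 521 and 349 by averaging all of a gene's probe sets, 1616 and 1489 at 1.5-fold and 380 and 153 at 3-fold. In NK1.1+ KO against control they were 1047 and 2430, and became 562 and 1496, 585 and 1485, 569 and 1786, 1809 and 3701, and 558 and 1213 in the same order of settings, and 535 and 2046 with the mean of probe sets measured on all arrays. Between the KO groups they were 694 and 2261, and became 326 and 1305, 361 and 1202, 337 and 1534, 1361 and 3780, 370 and 916, and 295 and 1852. Klf4 and Klf9 in NK1.1+ KO, and Klf10 in NK1.1- KO, stayed called higher against control in all 8 settings that keep the fold. Some of these settings could not change a call. Klf10 has 1 probe set, so changing the level, floor or probe set rule left its value at 1.49. For Klf4, dropping the floor, dropping suffixed probe sets and averaging those measured on all arrays left 6.42.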
